A study of Mus musculus with 6 samples.

Results

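The 6 genes described here encode receptors that bind the constant part of antibodies: *Fcgr1*, *Fcgr3* and *Fcgr4*, which activate the cell, *Fcgr2b*, which restrains it, *Fcer1g*, the signalling chain that the activating receptors share, and *Fcgrt*, the neonatal Fc receptor. They were chosen by symbol, and all 6 were found among the 19449 genes of the single-cell table and among the 55351 genes of the bulk table. The cells came from mice with experimental autoimmune encephalomyelitis (EAE), a model of multiple sclerosis in which immune cells attack the myelin of the spinal cord. Young recipients (8 to 12 weeks old) and middle-aged recipients (40 to 44 weeks old), all C57BL/6, received Th17-polarised CD4+ T cells that recognise a peptide of myelin oligodendrocyte glycoprotein and came from donors carrying a different CD45 allele, and CD45+ cells were sorted from their spinal cords on day 6 or day 10 after the transfer. One single-cell library stood for each age and day, and each library pooled 4 spinal cords, so the animals within a library could not be separated. One bulk RNA-seq library per age came from spinal cord microglia of naive mice, which had received no T cells.

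Antibody-coated targets cross-link activating Fc gamma receptors, Src family kinases then phosphorylate the activation motifs of the FcR gamma chain, and the cell engulfs the target or releases inflammatory mediators. The inhibitory receptor, FcγRIIB, carries its own inhibitory motif, recruits the phosphatase SHIP1 and raises the threshold of that response, so the ratio of activating to inhibitory receptors is usually taken to set how strongly a myeloid cell reacts to IgG. The neonatal Fc receptor works differently, since it binds IgG inside acid endosomes with β2-microglobulin as its partner and returns it to the surface. In the central nervous system these receptors are known from microglia, border macrophages and the monocytes that enter during inflammation, and interferon-γ is a classic inducer of *Fcgr1*.

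Most of the genes lie within one stretch of chromosome 1 (GRCm38): *Fcgr2b* at chr1:170958617-170976547 on the minus strand, *Fcgr4* at chr1:171018920-171029761 on the plus strand, *Fcgr3* at chr1:171051174-171064935 on the minus strand and *Fcer1g* at chr1:171229572-171234365 on the minus strand. *Fcgr1* lies on chromosome 3 (chr3:96282909-96293969, minus strand) and *Fcgrt* on chromosome 7 (chr7:45092990-45103851, minus strand). The 150 bases before the RefSeq start of the 4 Fc gamma receptor genes are shown because these genes parted in their behaviour between the days, as given further on. The promoters come from the RefSeq table on GRCm38.p6 and are written 5′ to 3′ on the strand of the gene, with matches to any of 3 motifs in capitals, searched on both strands: TTCNNNGAA, the interferon-γ activation site, the interferon regulatory factor site (GAAA, 2 bases of any kind and GAAA again), and GAGGAA, the core of the site of PU.1, the myeloid master factor, which reads TTCCTC on the opposite strand.
Fcgr1, chr3:96293970-96294119, minus strand: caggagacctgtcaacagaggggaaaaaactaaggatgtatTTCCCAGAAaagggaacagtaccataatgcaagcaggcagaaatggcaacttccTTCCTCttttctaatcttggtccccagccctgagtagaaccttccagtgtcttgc
Fcgr4, chr1:171018776-171018925, plus strand: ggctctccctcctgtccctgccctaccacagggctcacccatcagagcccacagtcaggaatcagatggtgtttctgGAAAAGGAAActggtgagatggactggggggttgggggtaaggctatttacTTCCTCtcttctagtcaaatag
Fcgr3, chr1:171059404-171059553, minus strand: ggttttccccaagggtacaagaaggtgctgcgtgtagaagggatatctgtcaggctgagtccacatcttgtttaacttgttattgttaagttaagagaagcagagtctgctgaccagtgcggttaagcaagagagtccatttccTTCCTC
Fcgr2b, chr1:170976072-170976221, minus strand: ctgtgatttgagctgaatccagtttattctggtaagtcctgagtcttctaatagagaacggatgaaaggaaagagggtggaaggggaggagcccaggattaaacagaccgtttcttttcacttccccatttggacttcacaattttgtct
The 3 activating receptor genes each held the PU.1 core, *Fcgr1* also held TTCNNNGAA and *Fcgr4* also held the interferon regulatory factor site, whereas none of the 3 motifs matched in the stretch of *Fcgr2b*, *Fcer1g* or *Fcgrt*. The matches did not overlap each other. Of 32817 promoters of this length, 4.09% held TTCNNNGAA, 1.59% held the interferon regulatory factor site and 14.5% held GAGGAA, and 0.862% held GAGGAA together with either of the other motifs. The stretches of *Fcgr3* and *Fcgr2b* lay wholly inside the gene spans given above, so the annotations place their starts differently. Bases before the outer starts were not searched. The stretch of a second RefSeq start of *Fcgr3* held the PU.1 core and no other match. A match describes letters only and was not tested as a site.

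*Fcgr2b* and *Fcgr3* have near-identical outer domains. The longest run of identical transcript sequence was 129 coding bases long, spanned exons 3 and 4 of both genes, and is shown because reads from it cannot be assigned to either gene by sequence.
Fcgr2b and Fcgr3, shared coding run: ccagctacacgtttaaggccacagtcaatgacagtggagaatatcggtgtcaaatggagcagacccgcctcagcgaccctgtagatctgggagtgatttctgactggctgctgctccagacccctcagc
Of the 50-base windows of *Fcgr3*, 10.2% also occurred in *Fcgr2b*, but none of those in its last 500 bases did, and 2.25% of the windows in the last 500 bases of *Fcgr2b* occurred in *Fcgr3*. The single-cell reads came from the 3′ ends. The bulk reads came from whole transcripts and were counted without strand, so the antisense genes that overlap *Fcgr2b* and *Fcgrt* cannot be told apart from them there.

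The 4 single-cell libraries held 8315 to 10026 cells and 57337626 to 69859331 unique molecular identifiers (UMIs, each a captured RNA molecule), with a median of 4704.5 to 6196 UMIs per cell. The 38057 cells fell into 16 clusters deposited with the data, and each was named only where marker genes supported it. Clusters 10 and 8 were microglia-like, 1 and 5 monocyte/macrophage-like, 0, 3 and 6 neutrophil-like, 7 dendritic-like, 4 B cell-like, 2 T cell-like and 9 NK-like. Of the 13 fixed neutrophil markers, 1 (*G0s2*) stood among the 10 leading genes of cluster 0. There were 154 cell barcodes that occurred in 2 or more libraries. Values below are UMIs summed over the cells of a cluster and library, as CPM of that sum (UMIs per 1000000), and give a gene's level relative to the other RNA of the same cells. A summed level cannot tell fewer expressing cells from less RNA per cell.

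*Fcgr1*, the only high-affinity IgG receptor of the set, was highest in microglia-like and monocyte/macrophage-like cells. It averaged 551 CPM over the 4 libraries in cluster 10 (371 to 765), 515 in cluster 1 (251 to 798), 408 in cluster 5 and 394 in cluster 8. These 4 clusters overlapped in range, and dendritic-like cluster 7 followed at 152 CPM and neutrophil-like cluster 0 at 57.8. *Fcgr3*, the widely expressed low-affinity activating receptor, was spread more evenly, at 829 CPM in cluster 10, 796 in cluster 8, 788 in neutrophil-like cluster 0, 786 in cluster 1, 713 in neutrophil-like cluster 3 and 693 in cluster 5. Each of these 6 overlapped its neighbour in the order, and a gap without overlap separated the last of them from neutrophil-like cluster 6 at 350 CPM. *Fcgr4*, an activating receptor for IgG2 subclasses, led in neutrophil-like cluster 0 at 610 CPM (390 to 850), ahead of cluster 1 at 423, cluster 10 at 385, cluster 5 at 366 and cluster 8 at 337, again with overlapping ranges.

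*Fcgr2b*, the inhibitory receptor, differed from the activating receptors in having a single leading cluster. Monocyte/macrophage-like cluster 1 stood at 661 CPM (544 to 769), above every library of the next cluster, microglia-like cluster 10, at 418 CPM (379 to 505). *Fcgr2b* is known as the only Fc gamma receptor of B cells, and in B cell-like cluster 4 it stood at 82.7 CPM (71.8 to 113), where *Fcgr1*, *Fcgr3* and *Fcgr4* averaged 4.92, 13.5 and 11.1 CPM, against 2.83, 7.20 and 5.23 CPM in T cell-like cells. *Fcer1g* reached 3403 CPM in both cluster 0 and cluster 1, and its range in the NK-like cells of cluster 9 (mean 2301 CPM, 2223 to 2363) lay within that of microglia-like cluster 10 (mean 2312 CPM, 2170 to 2464). In NK cells the chain is known to pair with other receptors too, and *Fcgr3*, which encodes their CD16, stood at 74.01 CPM in cluster 9. *Fcgrt* had the narrowest distribution: 104 CPM in dendritic-like cluster 7, 70.8 in cluster 10 and 55.8 in cluster 8, and 15.4 CPM or less in every other cluster, monocyte/macrophage-like cells included (11.9 in cluster 1).

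**Figure D1:**
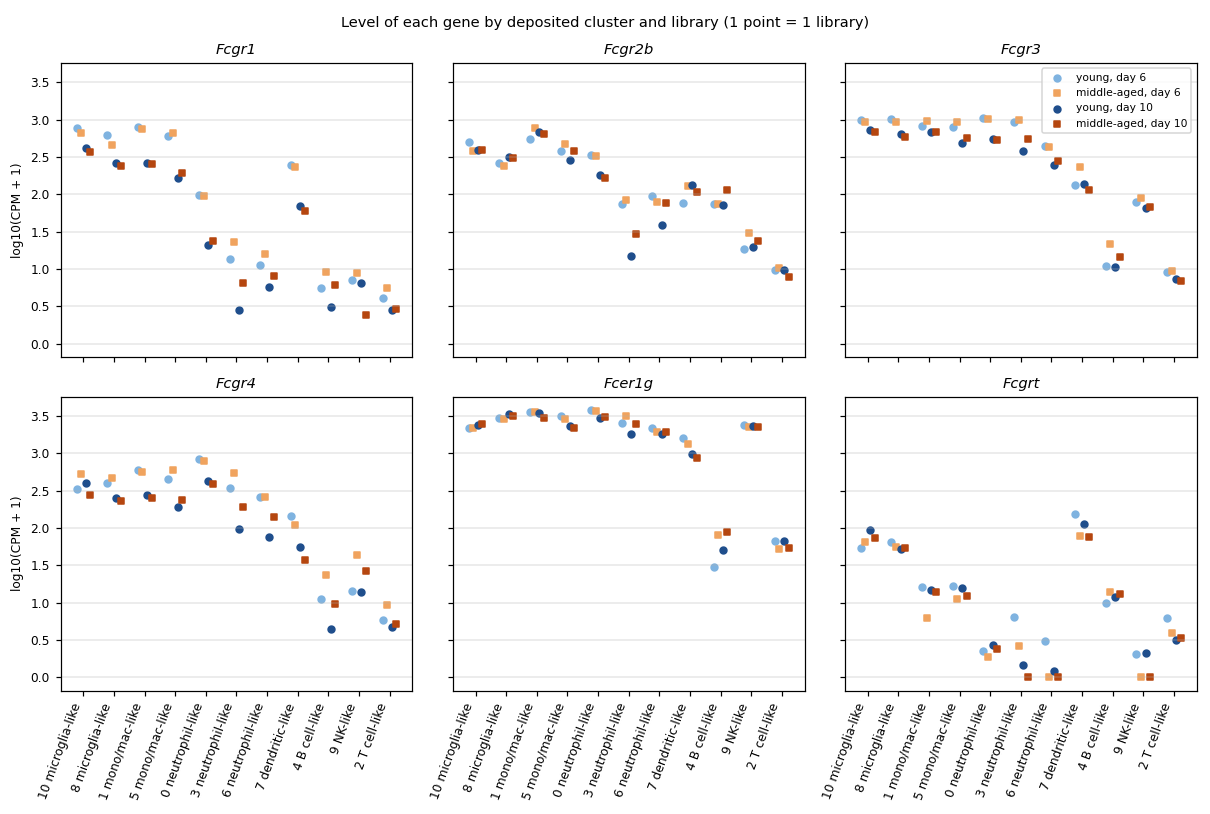
Level of each of the 6 genes by cluster, as log10(CPM + 1), with 1 point per library and the libraries of each age and day in their own marks. *Fcgr2b* stands apart in cluster 1, *Fcgr4* is highest in neutrophil-like cluster 0, and *Fcgrt* is high only in clusters 7, 10 and 8 of those plotted.

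T cell-like cluster 2, whose cells should lack the Fc gamma receptors, gave the background. *Fcgr1* lay between 1.80 and 4.52 CPM there, *Fcgr2b* between 6.73 and 9.33, *Fcgr3* between 5.83 and 8.45, *Fcgr4* between 3.68 and 8.31, and *Fcer1g* between 52.0 and 65.2. Of all UMIs of a gene, the monocyte/macrophage-like clusters held 81.3% for *Fcgr1* and 80.5% for *Fcgr2b*, but 67.3% for *Fcgr3*, 64.7% for *Fcgr4* and 30.5% for *Fcgrt*, where these clusters held 46.8% of the UMIs of all genes. The neutrophil-like clusters held 22.9% of *Fcgr4* and 18.2% of *Fcgr3* but 2.28% of *Fcgr1*, against 13.9% of all UMIs. *Fcgrt* lay mainly in dendritic-like (36.2%) and microglia-like cells (27.4%).

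Between day 6 and day 10 the high-affinity receptor *Fcgr1* was called lower in 5 of 6 clusters and *Fcgr4* in 6 of 10. Neither was called in microglia-like cluster 10. The activating receptor *Fcgr3* was called lower in 3 of 10 clusters. The inhibitory receptor *Fcgr2b* was also called lower in 3 of 10 and was called higher in 1, a call that depended on the scaling. Libraries of both ages served as the replicates of a day, and each cluster was tested over all its genes with edgeR's quasi-likelihood test, adjusted for age, with 1 residual degree of freedom. Genes were called at an adjusted p under 0.05. In 10 clusters 52 pairs of a gene and a cluster had enough UMIs to be tested, 41 had a lower fitted level on day 10, and 22 were called. Of these 20 were lower and 2 higher on day 10, and 32 had an unadjusted p under 0.05. Over all genes tested in the 10 clusters, 10.1% were called lower and 8.2% higher. An unadjusted edgeR p under 0.05 was reached by 680 of 7002 genes in cluster 9, the lowest share, and by 5773 of 9593 in cluster 0, the highest. The median fitted log2 fold change over all genes of a cluster lay between -0.0077 (cluster 8) and 0.079 (cluster 0). The fit scaled libraries by TMM factors, which set the bulk of the genes of a cluster to no change, and this shifted every day log2 fold change by -0.76 in cluster 0, by -0.29 in cluster 5, by -0.25 in cluster 3, by -0.17 in cluster 1, by 0.15 in cluster 10 and by 0.28 in cluster 8 relative to plain library totals, on which the CPM values rest. With library totals 21 pairs were called lower and 0 higher, among them *Fcgr1* in cluster 10 and *Fcgr3* (-0.68) and *Fcgr4* (-0.84) in cluster 8, which TMM factors left uncalled.

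*Fcgr1* in cluster 1 stood at 798 CPM in the young and 748 CPM in the middle-aged library of day 6, and at 263 and 251 CPM on day 10. The days did not overlap, and the fitted log2 fold change was -1.76 (edgeR adjusted p = 3.9e-05). In microglia-like cluster 8 the values were 613, 459, 264 and 241 CPM in the same order of libraries (log2 fold change -0.79, edgeR adjusted p = 0.0041). In neutrophil-like cluster 0, where the gene was far lower, it went from 96.0 and 92.5 CPM to 20.0 and 22.6 CPM (log2 fold change -2.90, edgeR adjusted p = 5.8e-09, and -2.14 with library totals). *Fcgr1* was called lower in 5 of the 6 clusters where it was tested. The exception was microglia-like cluster 10, with 765, 652, 417 and 371 CPM, where every day 10 library lay below every day 6 library but the log2 fold change of -0.70 missed the threshold (edgeR adjusted p = 0.13), which it passed with library totals (-0.85, edgeR adjusted p = 0.038).

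*Fcgr4* was negative in all 10 clusters and called lower in 6 of them. In cluster 1 it stood at 595 and 569 CPM on day 6 and 275 and 254 CPM on day 10 (log2 fold change -1.30, edgeR adjusted p = 4.0e-04). In cluster 0, its leading cluster, it stood at 850 and 780 CPM and then 422 and 390 CPM (log2 fold change -1.76, edgeR adjusted p = 6.9e-08, and -1.003 with library totals). In cluster 10 the days overlapped, since 335 and 526 CPM on day 6 met 404 and 275 CPM on day 10 (log2 fold change -0.18, edgeR adjusted p = 0.80). *Fcgr3* moved less. It was called lower in cluster 5 (log2 fold change -0.996), cluster 0 (-1.71, and -0.95 with library totals) and cluster 3 (-1.30). With library totals the call in cluster 3 was lost (-1.05, edgeR adjusted p = 0.060). In cluster 1 the values of 822, 953, 687 and 680 CPM did not overlap between the days but gave an edgeR adjusted p of 0.065.

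*Fcgr2b* differed between clusters. In cluster 1 it stood at 544 and 769 CPM on day 6 and 684 and 648 CPM on day 10, so the days overlapped (log2 fold change -0.13, edgeR adjusted p = 0.71). In cluster 8 it rose from 261 and 239 CPM to 320 and 310 CPM (log2 fold change 0.61, edgeR adjusted p = 0.028). That call depended on the scaling: with library totals in place of TMM factors the change was 0.33 (edgeR adjusted p = 0.22). The same held for the rise of *Fcer1g* there, from 2948 and 2842 CPM to 3387 and 3186 CPM, at 0.46 (edgeR adjusted p = 0.014) against 0.18 (edgeR adjusted p = 0.35). *Fcgr2b* was called lower in neutrophil-like clusters 0 (log2 fold change -1.70, and -0.94 with library totals) and 3 (-2.22), and in cluster 5 (-0.62), where the call was lost with library totals (-0.33, edgeR adjusted p = 0.10). In neutrophil-like cluster 6 it went from 92.7 to 38.1 CPM in the young and from 77.2 to 76.1 CPM in the middle-aged libraries and was not called (edgeR adjusted p = 0.15). *Fcgrt* was not called with edgeR in any of the 6 clusters where it was tested, 1 having an unadjusted p under 0.05, and its fitted change in cluster 10 was 0.66 (edgeR adjusted p = 0.075).

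The calls in clusters 0 and 1 held with DESeq2 and whichever library was left out. In clusters 3 and 6 all 4 calls were lost without the young or without the middle-aged day 6 library, and *Fcgr3* in cluster 3 and *Fcgr4* in cluster 6 also without the young day 10 library. In cluster 7 the calls of *Fcgr1*, *Fcgr4* and *Fcer1g* were lost without either day 10 library, where *Fcgr1* still had a log2 fold change of -1.83 or -2.12. Each of these fits left 1 library on a day. In cluster 7 without a day 10 library and in cluster 3 without a day 6 library the loss reached every gene of the cluster. Those losses therefore do not show that these genes depended on the library left out. In cluster 8 *Fcgr1* and *Fcgr2b* were not called without the middle-aged day 10 library (edgeR adjusted p = 0.058 and 0.055), *Fcgr2b* also not without the young day 10 library, and DESeq2 called none of the 3 genes there. *Fcgr2b* in cluster 5 was called only with all 4 libraries or without the young day 6 library.

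**Figure D2:**
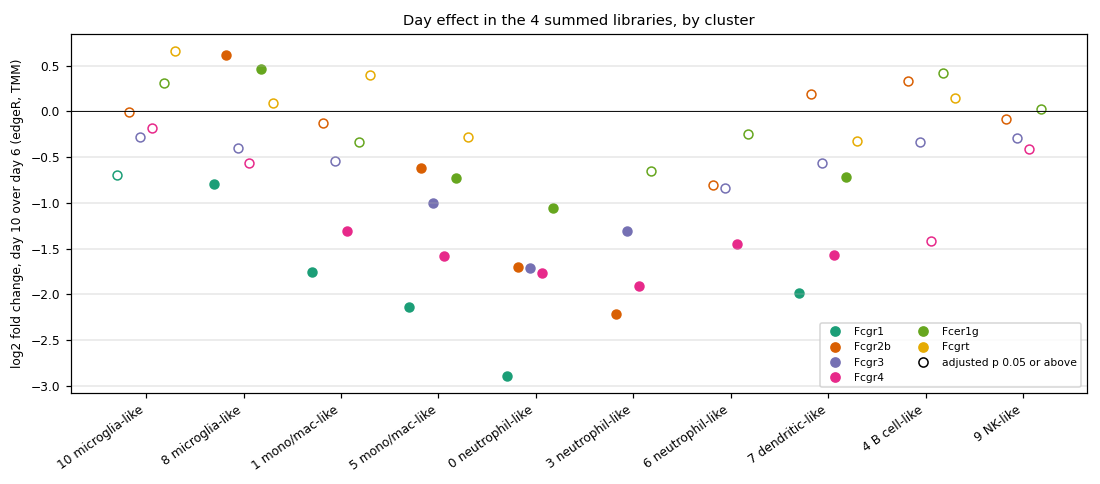
Fitted log2 fold change of day 10 over day 6 by tested cluster, with 1 coloured point per gene, filled for an edgeR adjusted p under 0.05 and open otherwise. *Fcgr1*, *Fcgr3* and *Fcgr4* lie below 0 in every cluster tested, while *Fcgr2b* lies on both sides.

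The background of each cluster sets the weight of these counts. In cluster 10 none of 6 genes was called with edgeR or DESeq2 and 2 had an unadjusted edgeR p under 0.05, where 6.64% of all genes were called in either direction. In cluster 8, 1 was called lower against 6.9% of all genes and 2 higher against 6.5%. In cluster 1, 2 of 6 were called lower against 15.2%, in cluster 5, 5 of 6 against 15.3%, and in cluster 0, 5 of 5 against 27.2%. In cluster 3, 3 of 4 were called lower against 13.2%, in cluster 6, 1 of 4 against 6.16%, and in cluster 7, 3 of 6 against 4.55%. Neither tool called any of the 5 genes tested in B cell-like cluster 4, with 1 at an unadjusted edgeR p under 0.05, or of the 4 tested in NK-like cluster 9, with 0, where 2.77% and 2.24% of all genes were called in either direction. The split of calls over all genes depended on the scaling: in cluster 0, 2613 genes were called lower and 2605 higher with TMM factors and 1044 and 5916 with library totals, in cluster 5, 1591 and 1060 against 1048 and 2846, in cluster 1, 1852 and 1802 against 1301 and 2435, and in cluster 3, 598 and 205 against 405 and 325. It moved the other way in cluster 8, from 578 and 544 to 962 and 253, and in cluster 10, from 365 and 336 to 744 and 288. In cluster 7 it went from 449 and 190 to 492 and 377, and in cluster 4 from 128 and 76 to 112 and 42.

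Markers of other cell types moved with the day in some clusters. In cluster 8 the summed level of the 8 microglia markers was 5740 and 3826 CPM on day 6 and 2644 and 3186 CPM on day 10, while the 10 monocyte/macrophage markers went from 1776 and 2127 CPM to 11810 and 15190 CPM, and exceeded the microglia markers by day 10. In cluster 1 the monocyte/macrophage markers stood at 23570, 21560, 20640 and 25190 CPM in the order young day 6, middle-aged day 6, young day 10 and middle-aged day 10. Removing the cells that carried markers of another lineage left 1626 of 2383, 1706 of 2760, 503 of 2166 and 1302 of 2336 cells of cluster 1. The cells left in cluster 10 were 368 of 432, 153 of 216, 138 of 362 and 245 of 334. In cluster 5 this left 534 of 817, 191 of 641, 35 of 409 and 72 of 344 cells. *Fcgr1* stayed called there without these cells, but *Fcgr4* did not (log2 fold change -0.53, edgeR adjusted p = 0.13), nor did *Fcgr3* or *Fcer1g*, and *Fcgr2b* turned to 0.03. The part of these cells in the day differences was not tested further.

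The inhibitory receptor took a larger share of the Fc gamma receptor UMIs on day 10 in clusters 1, 5, 7 and 8. It also did in B cell-like cluster 4, given further on, and took a smaller one in neutrophil-like cluster 3. Of the UMIs of *Fcgr1*, *Fcgr2b*, *Fcgr3* and *Fcgr4* together, *Fcgr2b* made up 19.7% and 25.3% in cluster 1 on day 6 (young and middle-aged) and 35.8% and 35.4% on day 10. In cluster 8 the shares were 11.4% in both ages and then 21.7% and 22.6%, in cluster 5 they were 16.8% and 17.5% and then 25.4% and 27.8%, and in dendritic-like cluster 7 they were 12.5% and 18.5% and then 33.7% in both ages. In these 4 clusters the share was higher on day 10 in both ages and the days did not overlap. This held without cells of other lineage markers and with means of log-normalized values. The filter removed no cells for monocyte/macrophage markers, which rose by day 10 in microglia-like cluster 8. The part of such cells in the share there was not tested. With 2 libraries a day the smallest two-sided p of an exact permutation test is 0.333, so no p is given. A share within a cell type does not depend on how its total was scaled. The share of the activating receptor *Fcgr3* was also higher on day 10 without overlap in clusters 1, 5 and 7. It went from 29.8% and 31.4% to 36.0% and 37.1% in cluster 1. In cluster 5 it went from 35.8% and 34.9% to 43.3% and 41.1%, and in cluster 7 from 21.9% and 32.8% to 34.5% and 36.3%. In these clusters the shares of *Fcgr1* and *Fcgr4* were lower on day 10 in both ages.

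Put as a ratio, each *Fcgr2b* UMI in cluster 1 was met by 4.07 and 2.95 activating receptor UMIs on day 6 and by 1.79 and 1.83 on day 10, and in cluster 8 by 7.79 and 7.78 and then 3.60 and 3.42. UMIs of the different genes are captured with unequal efficiency, so these ratios compare libraries and not the amounts of protein. Other clusters differed. In neutrophil-like cluster 3 the *Fcgr2b* share was lower on day 10 in both ages, 5.38% and 5.11% and then 2.82% and 3.70%, from 16 to 53 *Fcgr2b* UMIs a library, so the activating UMIs per *Fcgr2b* UMI went from 17.6 and 18.6 to 34.4 and 26.0. Neutrophil-like cluster 6 was mixed, at 11.5% and 9.87% and then 10.4% and 15.1%. In microglia-like cluster 10 the *Fcgr2b* share was 19.5% and 15.3% on day 6 and 20.2% and 23.0% on day 10, and the days overlapped under both alternatives. In neutrophil-like cluster 0 it was 14.6%, 14.7%, 15.4% and 15.03%, with all 4 receptors called lower, and with means of log-normalized values it was lower on day 10 in both ages. In B cell-like cluster 4 the share was 75.0% and 58.4% on day 6 and 82.7% and 80.6% on day 10, from 45 to 133 *Fcgr2b* UMIs a library. It was higher on day 10 in both ages without overlap of the days, also under both alternatives. The shared signalling chain gained on the receptors it serves, from 1.61 and 1.59 *Fcer1g* UMIs per activating receptor UMI in cluster 1 on day 6 to 2.81 and 2.51 on day 10.

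**Figure D3:**
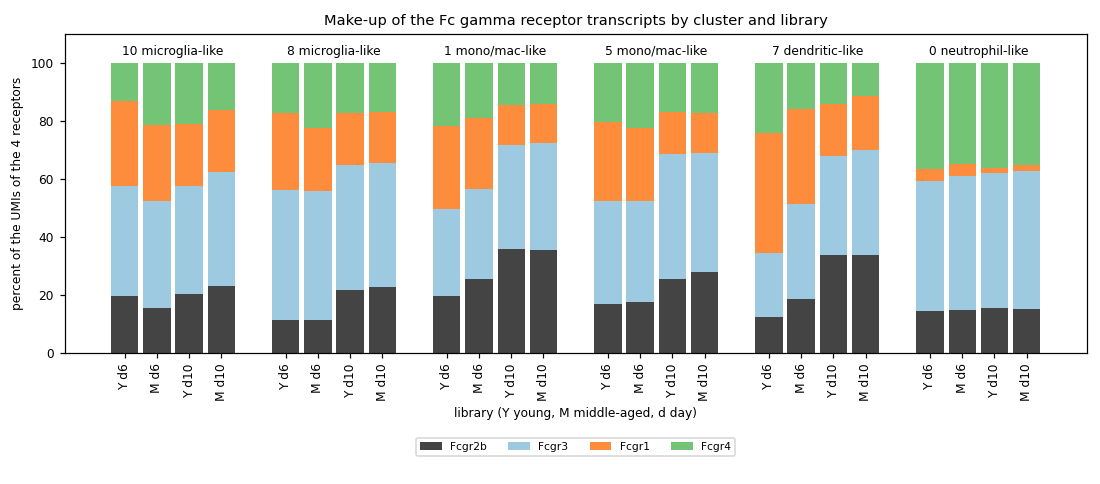
Share of the UMIs of the 4 Fc gamma receptor genes that each gene contributed, by cluster, with 1 stacked bar per library. The *Fcgr2b* segment of cluster 1 grows from 19.7% and 25.3% on day 6 to 35.8% and 35.4% on day 10, and that of cluster 0 stays between 14.6% and 15.4%.

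Shares of cells were compared at equal depth. After each cell was thinned to 1000 UMIs, *Fcgr1* was seen in 51.6% and 46.9% of the cells of cluster 1 on day 6 and in 23.1% and 22.1% on day 10, while in T cell-like cluster 2 it was seen in 0.204% to 0.616% of cells. Without thinning the shares in cluster 1 were 94.2%, 87.5%, 79.8% and 78.9%, at median depths of 8311, 8699.5, 10094.5 and 10017.5 UMIs per cell, against 4715 to 6225 in cluster 2. Thinned cells of cluster 1 with *Fcgr2b* as their only detected Fc gamma receptor made up 5.97% and 8.05% on day 6 and 15.9% and 15.8% on day 10. Cells with an activating receptor and no *Fcgr2b* went from 51.9% and 39.2% to 33.8% and 35.6%, and cells in which none of the 4 was detected from 9.92% and 7.68% to 18.5% and 18.6%. In cluster 0, where all receptors fell together, cells with none of the 4 went from 15.03% and 15.1% to 35.6% and 37.2%, and those with *Fcgr2b* alone stayed between 4.80% and 5.75%. A receptor not seen in a thinned cell may still be expressed.

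Part of the signalling genes behind the receptors fell in the monocyte/macrophage-like clusters. Of 17 genes that carry the activating signal, 8 were called lower on day 10 in cluster 1 and none higher, with a median log2 fold change of -0.52 over the list, where 15.2% of all genes were called lower. They included the Src family kinases *Lyn* (-1.18) and *Fgr* (-0.92), the adaptors *Lcp2* (-1.23) and *Pik3ap1* (-1.24), the PI3-kinase subunit *Pik3cd* (-0.99), the exchange factor *Vav3* (-0.84) and the kinase *Prkcd* (-1.34). The same 8 genes were called lower in cluster 5 (15.3% of all genes), from -0.61 for *Fgr* to -1.67 for *Pik3ap1*, where *Src* was called higher (1.76). Signalling genes were examined only in the fit on all cells. Without cells of other lineage markers, cluster 5 kept 35 of 409 young and 72 of 344 middle-aged cells on day 10. Whether its signalling calls hold without them was not tested. In cluster 8, *Lyn*, *Lcp2* and *Pik3ap1* were among 4 genes called lower (6.9% of all genes) and *Src* was called higher (2.13), and in cluster 10 *Src* alone was called (1.14). Of 8 genes of the inhibitory arm, 2 were called lower in cluster 1, the phosphatase SHP-1 gene *Ptpn6* (-0.68) and the adaptor *Dok2* (-1.57), and *Dok2* alone in cluster 5 (-1.33), counts near the 15.2% and 15.3% of all genes called lower in these clusters. *Inpp5d*, which encodes SHIP1, was not called in any of the 4 clusters.

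Partner chains and relatives were mixed. *B2m*, the partner of the neonatal Fc receptor, was called higher in cluster 8 (0.78) and lower in cluster 5 (-0.66), as was *Tyrobp*, the adaptor DAP12, at 0.53 and -0.60. *Cd247*, the T cell receptor zeta chain, was called higher in cluster 5 (0.85). The T cell markers summed to 716 CPM in cluster 5, against 27.5 CPM in cluster 1. The part of T cells in the *Cd247* call was not tested. *Fcrls*, a microglial Fc receptor-like gene, was called lower in cluster 10 (-3.82) and cluster 8 (-3.48). *Trim21*, the cytosolic antibody receptor, was called lower in clusters 1 (-1.10) and 5 (-1.66), and *Fcmr*, the IgM receptor, in cluster 5 (-2.24). By level *Fcmr* (487 CPM) and *Fcrla* (199 CPM) were highest in B cell-like cluster 4, *Fcrls* in cluster 10 (165 CPM), *Trim21* in cluster 0 (42.8 CPM), *B2m* in cluster 0 (6592 CPM), *Tyrobp* in cluster 3 (4987 CPM) and *Cd247* in cluster 2 (150 CPM). The antibody genes that supply the ligand lay in cluster 4, with *Ighm* at 3050, *Igha* at 1096, *Ighd* at 571, *Jchain* at 525 and *Ighg2c* at 410 CPM, and *Ighm* UMIs found in other cells were called lower on day 10 in clusters 8 (-1.31), 1 (-1.21) and 5 (-0.995).

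Few pairs of a gene and a cluster were called for age. Of the same 52 pairs, 1 was called between middle-aged and young recipients, where 0.377% of all genes tested in the 10 clusters were called. An unadjusted edgeR p under 0.05 was reached by 12. In cluster 4 it was 4 of 5, beside 552 of 7364 genes, and in cluster 5 it was 3 of 6, beside 890 of 10379. In cluster 7 it was 2 of 6, beside 899 of 9867. Clusters 1, 3 and 9 had 1 each, and clusters 10, 8, 0 and 6 had none. The call was *Fcer1g* in B cell-like cluster 4, at 29.1 and 80.4 CPM on day 6 (young and middle-aged) and 49.9 and 86.6 CPM on day 10. These levels lay around the background of T cell-like cluster 2 (52.0 to 65.2 CPM), with both young libraries below it. In cluster 4 *Fcer1g* was higher in the middle-aged library on both days (log2 fold change 1.13, edgeR adjusted p = 1.4e-04). It was among 0.693% of genes called higher with age in that cluster. It rested on 26, 50, 73 and 102 UMIs, and 10 cells held 42.5% to 66.0% of them in each library. The 10 monocyte/macrophage markers in cluster 4 moved the same way, at 736 and 1151 CPM on day 6 and 713 and 1178 CPM on day 10. Without cells that carried markers of another lineage the difference was 1.34 (edgeR adjusted p = 1.8e-05). In this cluster those were cells with T cell, NK or neutrophil markers. No cells were removed for monocyte/macrophage markers, so the part of such cells in the difference was not tested. The call was lost when either middle-aged library was left out and with DESeq2.

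In microglia-like cluster 10 the age difference of *Fcgr4* pointed in opposite directions on the 2 days. On day 6 it was 335 CPM in the young and 526 CPM in the middle-aged library (log2 ratio 0.65, 95% interval 0.53 to 0.77), and on day 10 it was 404 and 275 CPM (log2 ratio -0.55, interval -0.68 to -0.43). These intervals cover the counting of UMIs only and not the variation between mice. At 1000 UMIs per cell *Fcgr4* was seen in 28.8% and 43.3% of the cells on day 6 and in 28.2% and 22.0% on day 10, and the ratios kept their signs under all 6 alternatives run. The summed neutrophil markers in cluster 10, 4792 and 1610 CPM on day 6 and 6126 and 3844 CPM on day 10, were lower in the middle-aged library on both days. The other 5 genes changed less on both days: *Fcgr1* had ratios of -0.23 and -0.17, *Fcgr3* -0.11 and -0.11, *Fcgr2b* -0.42 and 0.01, *Fcer1g* -0.01 and 0.02, and *Fcgrt* 0.27 and -0.37. The median over the 6 genes was -0.06 on day 6 and -0.14 on day 10, beside -0.04 and -0.00 over all genes.

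In cluster 1 on day 6 the widest age differences were those of *Fcgrt*, lower in the middle-aged library at a low level, and of *Fcgr2b*, higher there. *Fcgr2b* stood at 544 CPM in the young and 769 CPM in the middle-aged library (log2 ratio 0.50, interval 0.47 to 0.53), *Fcgr3* at 822 and 953 CPM (0.21), *Fcgr1* at 798 and 748 CPM (-0.09) and *Fcgr4* at 595 and 569 CPM (-0.06). The small differences of *Fcgr1* and *Fcgr4* turned to 0.03 and 0.06 with TMM factors. By day 10 *Fcgr2b* was at 684 and 648 CPM (log2 ratio -0.08), and *Fcer1g* was lower in the middle-aged library, at 3446 and 2979 CPM (-0.21). *Fcgrt*, at 15.4 and 5.26 CPM on day 6, had a ratio of -1.55 from 343 and 138 UMIs, and 14.0 and 13.03 CPM on day 10. The medians over the 6 genes were -0.02 and -0.09, beside -0.13 and 0.01 over all genes.

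**Figure D4:**
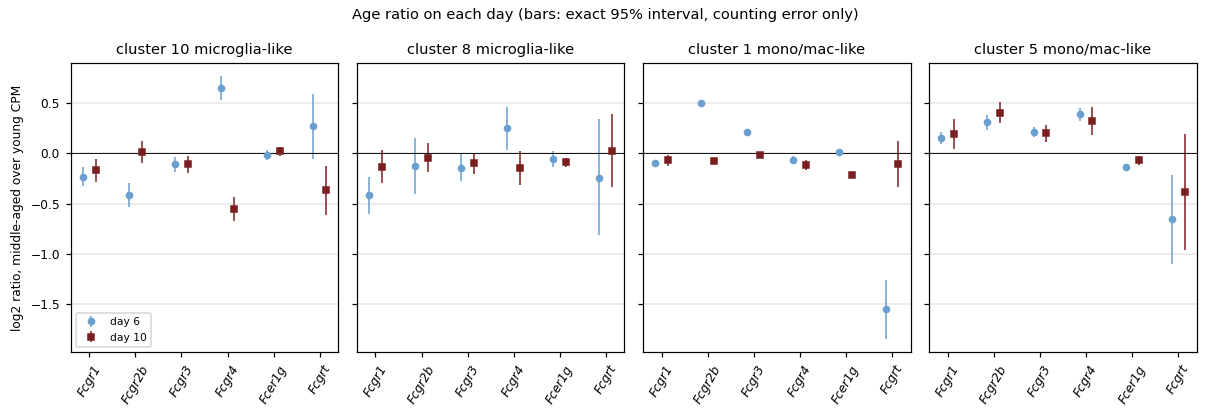
Log2 ratio of the middle-aged over the young library on each day for the 6 genes in clusters 10, 8, 1 and 5, with 95% intervals for the counting of UMIs. *Fcgr4* in cluster 10 lies at 0.65 on day 6 and -0.55 on day 10, and *Fcgr2b* in cluster 1 at 0.50 and -0.08.

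In cluster 5 all 4 Fc gamma receptors were higher in the middle-aged library on both days, with *Fcgr2b* at 0.31 and 0.41, *Fcgr4* at 0.39 and 0.32, *Fcgr3* at 0.21 and 0.20 and *Fcgr1* at 0.15 and 0.19, but on day 10 *Fcgr2b*, *Fcgr3* and *Fcgr4* turned to -0.12, -0.12 and -0.28 without cells of other lineage markers. In microglia-like cluster 8 *Fcgr1* was lower with age on day 6 (613 and 459 CPM, -0.42) and less so on day 10 (-0.13), and *Fcgr4* had ratios of 0.25 and -0.14. In neutrophil-like cluster 0 the 5 genes with over 20 UMIs in each library lay between -0.12 and 0.18 on both days. *Fcgrt* in dendritic-like cluster 7 was lower in the middle-aged library on both days, at 153 and 77.1 CPM on day 6 and 111 and 74.8 CPM on day 10. That difference (log2 fold change -0.75) missed the threshold (edgeR adjusted p = 0.12), and it passed with library totals (-0.79, edgeR adjusted p = 0.014) and without the filter on low counts (-0.76, edgeR adjusted p = 0.023).

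No gene of the 5 lists was called by edgeR for age in clusters 10, 8, 1 or 5, and 1, 0, 3 and 4 of them had an unadjusted p under 0.05 there. On day 6 in cluster 1, 16 of the 17 activating genes had a lower level in the middle-aged library (median -0.33), as did 8 of the 8 inhibitory genes (median -0.20) and 66.8% of all genes (median -0.13), with *Pik3cd* (-0.78) and *Plcg2* (-0.72) lowest and *Src* (1.03) and *Vav1* (-0.07) highest. By day 10 it was 8 of 17 (median 0.01), with *Src* (-0.15) among the 2 lowest and *Inppl1*, a SHIP2 gene of the inhibitory list (0.44), and *Btk* (0.31) highest over both lists. In cluster 10 the lowest were *Inppl1* (-0.49) and the phosphatase gene *Ptpn11* (-0.49) on day 6 and *Rac2* (-0.34) and *Pik3cd* (-0.30) on day 10. The highest there were *Dok1* (0.44) and *Prkcd* (0.24) on day 6 and *Fgr* (0.41) and *Syk* (0.28) on day 10.

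Naive microglia gave the level of the receptors without disease. With reads divided by the length of a gene's exons, *Fcgr3* was the leading receptor at 484 and 519 CPM per kilobase in the young and middle-aged library, *Fcgr1* stood at 180 and 160, *Fcgr2b* at 47.3 and 52.3 and *Fcgr4* at 11.1 and 16.4. Of the 4 receptors per length, *Fcgr3* made up 67.0% and 69.4%, *Fcgr1* 24.9% and 21.4%, *Fcgr2b* 6.55% and 7.001% and *Fcgr4* 1.53% and 2.20%. *Fcer1g* stood at 192 and 219 and *Fcgrt* at 53.1 and 41.4 CPM per kilobase.

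With 1 library per age no test was possible, and the intervals cover the counting of reads only. *Fcgr4* was higher in the middle-aged library, at 1573 against 1103 reads (log2 ratio 0.57, 95% interval 0.46 to 0.68), and 5.11% of the 14821 genes with enough reads had a higher ratio. *Fcgrt* was lower, at 6634 against 8858 reads (log2 ratio -0.36, interval -0.41 to -0.31), and 13.5% of genes had a lower ratio. *Fcgr1* was at -0.17, *Fcgr3* at 0.10, *Fcgr2b* at 0.15 and *Fcer1g* at 0.20, each nearer to the median gene (-0.01). The 5th and 95th percentiles over all genes were -1.51 and 0.57. Of the signalling genes, *Vav3* (-0.74) and *Dok2* (-0.19) were lowest and *Fgr* (0.35) and *Src* (0.27) highest.

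The 8 microglia markers summed to 28810 and 27180 CPM in the young and middle-aged library, so both libraries carried the label's cell type. Markers of other cells were unequal: the 4 perivascular macrophage markers stood at 206 and 97.6 CPM, 0 of 4 being higher with age, the 7 endothelial markers at 371 and 117 CPM, and the 13 neutrophil markers at 696 and 830 CPM. *Cd3e*, *Cd3g* and *Trbc1* of the T cell markers had no reads in either library. The part of these cells in the ratios of *Fcgr4* and *Fcgrt* was not tested.

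**Figure D5:**
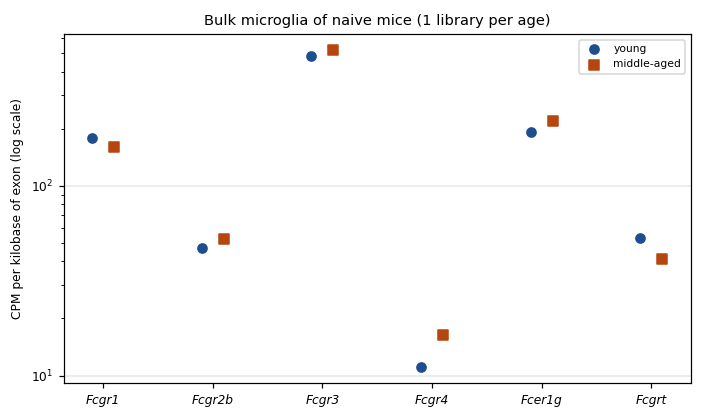
Level of the 6 genes in naive microglia as CPM per kilobase of exon on a log axis, with 1 point per library. *Fcgr4* rises from 11.1 in the young to 16.4 in the middle-aged library, and *Fcgrt* goes from 53.1 to 41.4.

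The genes whose levels across clusters and libraries were most like those of a receptor were sought over 61 sums of 100000 or more UMIs and 9440 genes. The sums share libraries and cells of related types, so Pearson's r of log2(CPM + 1) is a description only. *Fcer1g* was most like *Tyrobp* (0.97), the integrin gene *Itgam* (0.92) and *Fcgr3* (0.91). *Fcgr3* was most like *Tlr2* (0.95), *Fcgr4* (0.93) and *Il13ra1* (0.93), and *Fcgr4* most like *Tgm2* (0.95), *Tlr2* (0.94) and *Snx10* (0.93). *Fcgr1* was most like *Capza2* (0.93), *Rrbp1* (0.91) and *Adap2os* (0.91), and *Fcgr2b* had the weakest neighbours of the Fc gamma receptors, *Mpeg1* (0.86), *Ctsz* (0.85) and *Cyfip1* (0.84). *Fcgrt*, whose nearest genes were *Eng* (0.86), *Plxnb2* (0.86) and *H2-DMb1* (0.85), was hardly like the signalling chain (0.06).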

How the data were processed

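Spinal cord CD45+ cells (4 libraries) and naive microglia (2 libraries) were measured. The deposited single-cell counts are UMIs per gene and cell, which the authors made with Cell Ranger 3.1.0 (10x v3, mm10, GENCODE vM23) and clustered with Seurat 4.0.4, and the deposited clusters were used. The deposited bulk counts are reads per gene (fastp 0.20.0, HISAT2 2.1.0, featureCounts of Subread 1.5.0-p2, unstranded, Ensembl release 99). Depth was 57337626 to 69859331 UMIs per single-cell library and 79373420 and 76293436 reads in the bulk. No doublet caller was run, and doublets may remain.

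UMIs were summed by cluster and library. Clusters were named from fixed markers. edgeR 4.0.16 (R 4.3.3, limma 3.58.1) with TMM factors fitted day and age over genes with 10 or more UMIs in 2 or more libraries, and p-values were adjusted (Benjamini-Hochberg) over all genes of a cluster. No label says that libraries are replicates, so the spread among 4 libraries, with 1 residual degree of freedom, may be technical. The p-values also rest on spread that the quasi-likelihood test pooled over all genes of a cluster. The median prior degrees of freedom of that pooling ran from 9.95 in cluster 3 to 21.5 in cluster 6. They were infinite in clusters 4 and 9, where a gene's own spread carried no weight. On simulated counts the fit recovered 99.5% and 100% of 200 changed genes in clusters 10 (10398 genes) and 1 (12072 genes), with 9 and 8 false calls. The changed genes all differed 4-fold with age and had 200 or more UMIs. Every simulated gene had the same spread, set below the common value fitted in these clusters. Recovery of smaller changes was not tested. Age ratios within a day have exact conditional binomial 95% intervals, and shares of cells have exact Clopper-Pearson 95% intervals, for counting error only. Background medians used genes with 100 or more counts. Alternatives were DESeq2 1.42.0, library totals, other totals, filters and thinning, and each library left out. Python 3.11.15, numpy 2.4.6, pandas 2.3.3, scipy 1.17.1 and matplotlib 3.10.9 were used.

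The members, pathway lists and tests were chosen with earlier results of these data known. Named genes were the 6 members, the 3 nearest genes of each, every signalling gene called in clusters 10, 8, 1 or 5, the 2 highest and 2 lowest age ratios of the signalling lists with 100 or more counts, and relatives, partners and antibody genes with 1000 or more UMIs in all. One gene that the rule names is not reported here.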

Additional observations from a re-analysis of the deposited data

Results flagged for a closer look

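The age ratios of 4 pairs of a gene and a cluster had opposite signs on the 2 days, with both intervals clear of 0 and both log2 ratios at least 0.25 in size. There was 1 library per age and day, so the difference between the days was not tested. *Fcgr4* in microglia-like cluster 10 had a log2 ratio of middle-aged over young of 0.65 on day 6 and -0.55 on day 10. In dendritic-like cluster 7 *Fcgr2b* had 0.80 and -0.33, from 74.9 and 130 CPM on day 6 and 132 and 105 CPM on day 10, and *Fcgr3* had 0.81 and -0.25, from 131 and 231 CPM and then 135 and 114 CPM. The dendritic cell markers in that cluster summed to 1699 and 3310 CPM on day 6 and 2262 and 2522 CPM on day 10, and their part in these ratios was not tested. *Fcgr4* in cluster 13, which carried no name, had -0.82 and 0.46.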

How the results depend on the processing

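No paired analysis was possible because each age and day had 1 library and replicate numbers were given in accession order only. The number of day calls was 22 of 52 and stayed within 15 to 25 when each library was left out, with 18 under DESeq2, 21 with library totals and 19 without cells carrying other lineage markers. The number of age calls, 1, was 0 under DESeq2 and with age as the only term, 2 with library totals and 2 without the filter on low counts, and between 0 and 1 when each library was left out, where it was 0 without either middle-aged library. Of the age log2 ratios, 243 of 288 recomputed values kept their sign and size, 38 moved and 7 turned. With TMM factors in cluster 1 on day 6 *Fcgr1* turned to 0.026, *Fcgr4* to 0.055 and the median over the genes moved to 0.095. *Fcer1g* there turned to -0.0059 with totals without mitochondrial and ribosomal protein genes. Without cells carrying other lineage markers in cluster 5, *Fcgrt* turned to 0.0063 on day 6 and *Fcgr2b*, *Fcgr3* and *Fcgr4* turned to -0.12, -0.12 and -0.28 on day 10, and the medians were 0.28 and -0.079. The cluster 1 median of day 10 was -0.25 without these cells and -0.040 as a mean of log-normalized values. The cause of these moves was not tested. All 24 recomputed bulk ratios stayed within their intervals. Pooled animals and 1 library per age and day limit every age statement to these libraries.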
